A study of Mus musculus with 2 samples.

Results

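This account covers 39 mouse genes whose enzymes make serine, carry single carbon units on folate and build or recycle nucleotides. They were listed by name, with earlier results of these data known, so their counts are a description and no independent evidence of a shared direction. Of them, 38 had at least 1 probe set that carries their symbol alone on the array, out of 18193 such genes in all. Impdh2, an IMP dehydrogenase, had no probe set under its symbol alone, so it has no signal here and enters only the promoter search. For each gene the probe set with the brightest mean log2 signal was used, and all 38 were above the floor, a signal of 10.3 that separates measured from dim probe sets, on both arrays (12897 of the 18193 genes were above it on at least 1). The samples were splenic antigen-presenting cells (APCs) from female C57BL/6 mice aged 10 weeks, which spent a night in culture with CD4+ T cells bearing the P25 T cell receptor. P25 was added in one group (labelled P25) and only medium in the other (labelled non-stimulated). P25 is a mycobacterial peptide that this receptor recognises on MHC class II, and the T cells were present in both groups. APCs were then enriched, by a procedure not given in the sources used here, and each group's RNA, a mixture from 3 experiments, went onto 1 array. With 1 array per group there is no replicate check, and no p-value is given. All ratios are the P25 array over the medium array.

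Serine is made from a glycolytic intermediate by Phgdh, Psat1 and Psph, and its side carbon is passed to folate by the Shmt enzymes. Folate carries that carbon through a mitochondrial and a cytosolic arm to steps that need it, among them purine ring assembly and thymidylate synthesis. De novo routes build purines and pyrimidines from small precursors, whereas salvage enzymes reuse bases and nucleosides. Lymphocytes entering division draw on both, and MYC, E2F and ATF4 are known regulators of parts of these pathways.

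Of the 38 members, 27 were at least 2-fold higher with P25, 1 was at least 2-fold lower and 10 were within 2-fold. Among all measured genes 9.43% were at least 2-fold higher and 7.22% at least 2-fold lower, against 71.1% higher among the members. The members are bright genes, so the share among genes with a mean signal of at least 100 is given as well: 10.9% of 6914 were at least 2-fold higher and 6.25% lower, against 26 and 0 of 36 members of that brightness. The members' median log2 ratio was 1.42 (2.68-fold), beside 0.02 for all measured genes, and 37 of 38 lay above 0. In the absence of replicates, disagreement between probe sets was gauged from pairs of probe sets of the same gene. Both probe sets of a pair were read on the same arrays, so variation between arrays, RNA mixtures or cultures is not included. The SD of the difference in log2 ratio within such pairs was 0.58 (5293 genes), or 0.46 where the dimmer one had a mean signal of at least 100 (2616 genes). Of the 27 higher members, 18 had another probe set above the floor on both arrays, and 16 of these were at least 2-fold higher on the brightest such probe set too (88.9%, against 56.4% of all 534 higher genes with such a pair). These shares were not matched for brightness or for the size of the ratio, and brighter pairs differed less, so they are no like-for-like comparison. In bulk RNA more cells of a type and more RNA per cell cannot be told apart.

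**Figure D1:**
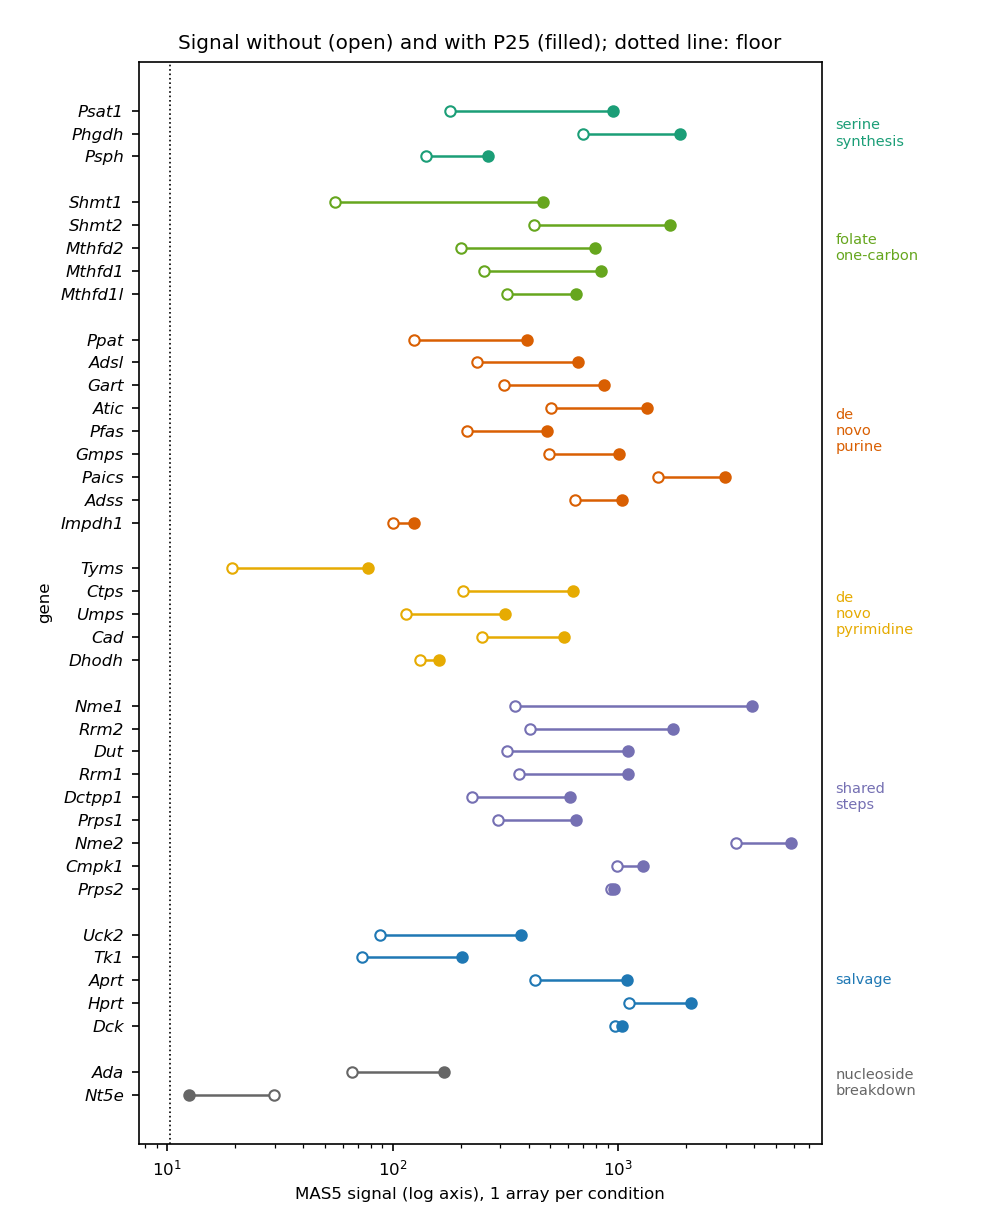
MAS5 signal (log axis) of the 38 members, grouped by route, on the medium array (open circles) and the P25 array (filled circles), with the floor as a dotted line; each circle is 1 array. Filled circles lie right of the open ones for every gene but Nt5e, by least for Prps2 (960 against 925) and by most for Nme1 (3923 against 347).

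Because many members were higher together, the 250 bases before their annotated starts were read from the RefSeq promoter table (GRCm38.p6), which held 37 of the 39 members, and searched on both strands. The E-box CACGTG, a site type that MYC and related factors can bind, was in at least 1 window of 5 members, or 13.5%. These were Nme1, Tyms, Atic, Paics and Impdh2, the last of which was not measured here. Counted by gene in the same way, it was in 9.65% of the 10430 measured genes with a window. By window the share was 6.02% of all 32851, a different unit, as a gene can have several windows. With so few members, the 13.5% is not read as an excess. The E2F-type motif TTTCCCGC was found for Ppat alone (0.895% of all windows), TTTGGCGC for no member (0.417%) and TGATGNAA, an ATF4-type element, for Prps1 alone (3.45%). No member held matches to more than 1 of these motifs, and a match is a description of the sequence only. The 3 windows shown are those of the E-box genes with the highest ratios, with the E-box in capitals, 5' to 3' on the strand of the gene. They are Nme1 (chr11:93968273-93968522, minus strand, its outer start), Tyms (chr5:30073626-30073875, minus strand) and Atic (chr1:71556906-71557155, plus strand).
Nme1: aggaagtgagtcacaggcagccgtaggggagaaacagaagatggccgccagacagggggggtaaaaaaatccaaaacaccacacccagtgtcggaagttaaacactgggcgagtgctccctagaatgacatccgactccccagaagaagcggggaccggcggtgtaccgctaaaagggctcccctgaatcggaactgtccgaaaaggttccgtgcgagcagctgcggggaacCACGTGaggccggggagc
Tyms: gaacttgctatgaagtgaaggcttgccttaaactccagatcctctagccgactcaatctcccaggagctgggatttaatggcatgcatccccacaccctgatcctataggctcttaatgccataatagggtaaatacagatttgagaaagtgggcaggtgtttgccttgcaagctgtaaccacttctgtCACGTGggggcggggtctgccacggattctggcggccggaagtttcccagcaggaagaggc
Atic: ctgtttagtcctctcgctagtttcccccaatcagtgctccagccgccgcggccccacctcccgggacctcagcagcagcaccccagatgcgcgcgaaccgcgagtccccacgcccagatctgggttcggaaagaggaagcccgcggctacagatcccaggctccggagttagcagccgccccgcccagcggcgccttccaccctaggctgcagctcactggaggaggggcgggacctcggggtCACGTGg
The first base of the E-box lies 18 bases before the start of Nme1, 61 before that of Tyms and 7 before that of Atic. Paics and Ppat, both enzymes of the path to IMP, start on opposite strands of chromosome 5 at starts 276 bases apart, so each one's window lies inside the other's transcript and is not shown. Their log2 ratios on the brightest probe sets were 0.98 and 1.66.

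In serine synthesis, Psat1 stood out. Psat1, the aminotransferase of the pathway, had a signal of 943 with P25 against 179 with medium, 5.26-fold higher, and its other probe set gave 4.73-fold (869 against 184). Phgdh, the dehydrogenase that commits carbon to serine, had 1872 against 694, or 2.70-fold. Its 4 own probe sets had log2 ratios between 0.86 and 1.43, and a pair that it shares with predicted genes gave 2.20-fold and 2.83-fold, so every one was higher with P25. Psph, the phosphatase of the last step, was just inside the threshold at 1.89-fold (265 against 140, 1 probe set).

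All 5 folate enzymes were at least 2-fold higher, and their median ratio was 3.93-fold. Shmt1, the cytosolic serine hydroxymethyltransferase, had a signal of 466 with P25 against 55.8 with medium, 8.35-fold higher. Its 4 probe sets were all past 2-fold but far apart, from 1.12 to 4.10 in log2 ratio, so the direction was shared and the size was not. Shmt2, the mitochondrial enzyme of the same reaction, had 1688 against 423, 3.99-fold. Mthfd2, the mitochondrial dehydrogenase and cyclohydrolase, had 791 against 201, 3.93-fold, and 409 against 115 on its other probe set, so both gave nearly the same ratio. Mthfd1, which carries the cytosolic activities in a single protein, was 3.32-fold higher (840 against 253), with 1.73 to 2.47 in log2 ratio over 3 probe sets. Mthfd1l, the mitochondrial formate synthetase, was the lowest of the 5 and lay on the threshold at 2.03-fold (651 against 321). Both the mitochondrial enzymes (Shmt2, Mthfd2, Mthfd1l) and the cytosolic ones (Shmt1, Mthfd1) were thus higher.

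Of the 6 enzymes that lead from PRPP to IMP, the common purine precursor, 5 were at least 2-fold higher, and the median log2 ratio was 1.44. Ppat, the amidotransferase that commits PRPP to purines, was highest at 3.16-fold (392 against 124). Adsl (2.80-fold, 660 against 236) acts on the way to IMP and again on the way to AMP. Gart, which holds several steps in a single protein, had 865 against 313, 2.77-fold, and its 4 probe sets lay close together, from 1.31 to 1.70 in log2 ratio. Atic, which closes the purine ring and is among the E-box genes, had 1336 against 501, 2.66-fold, and Pfas 485 against 214, 2.27-fold. Paics, at 1.98-fold (2954 against 1494), was just under the threshold on its brightest probe set, and its other probe sets gave 1.73-fold and 3.11-fold. Beyond IMP, 1 of 3 enzymes passed 2-fold. Gmps, which makes GMP, was 2.04-fold higher (1011 against 496), with log2 ratios of 0.65 and 0.48 on its dimmer probe sets. Adss, of the AMP branch, was 1.61-fold higher (1035 against 643). Impdh1, of the GMP branch, was 1.24-fold higher (125 against 100.4), within the spread between probe sets.

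Among the pyrimidine genes 4 of 5 were at least 2-fold higher. Tyms, which makes thymidylate with folate carbon, had a signal of 78.1 with P25 against 19.5 with medium, 4.01-fold. This is a dim probe set. A brighter one that Tyms shares with its pseudogene gave 330 against 62.6, 5.28-fold. Another of its own gave at least 1.79-fold (18.4 against a signal below the floor), and the rest were below the floor on both arrays. Ctps, which makes CTP from UTP, was 3.07-fold higher (629 against 205). Umps, which closes the pathway to UMP, had 315 against 115, 2.75-fold, and Cad, the protein of the opening steps, 576 against 250, 2.30-fold. Dhodh, the mitochondrial enzyme between Cad and Umps, did not follow its neighbours: it had 161 against 132, 1.22-fold, and 103 against 83.3 on its other probe set.

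**Figure D2:**
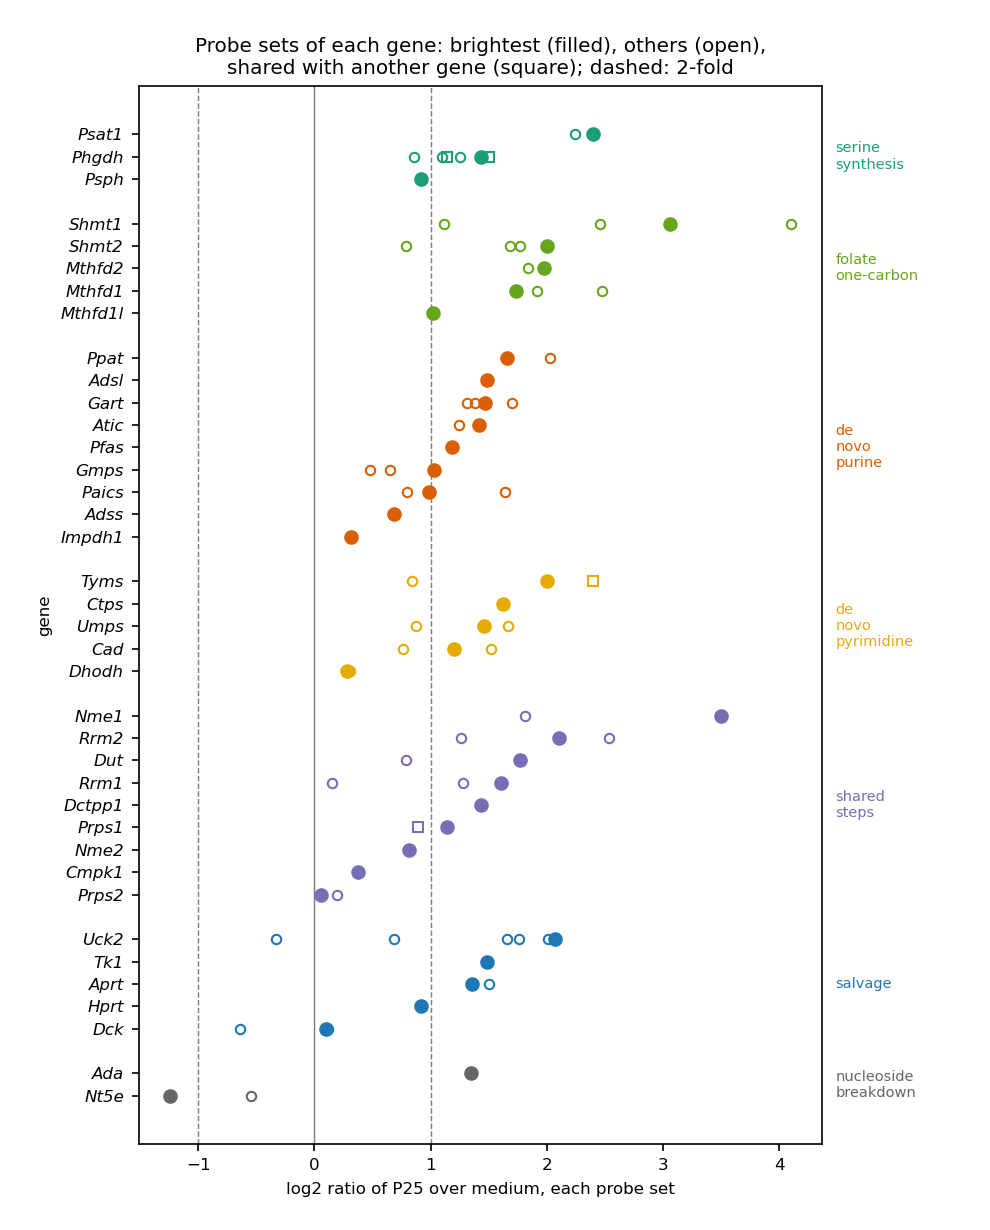
Log2 ratio of P25 over medium for each measured probe set of each member: the brightest filled, the others open, squares for probe sets shared with another gene, dashed lines at 2-fold. Most genes have all their probe sets right of 0, those of Shmt1 span 1.12 to 4.10, and only Uck2 and Dck have probe sets on both sides of 0.

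Several enzymes serve de novo and salvage nucleotides alike, and 6 of 9 of these were at least 2-fold higher. Nme1, a nucleoside diphosphate kinase, had the highest ratio of all members, 11.3-fold, with a signal of 3923 with P25 against 347 with medium on a probe set of the _x_at type, whose probes may bind other transcripts. Its other probe set gave 3.51-fold (1949 against 556), so the size is uncertain. Nme2, a neighbouring and closely similar gene, was 1.75-fold higher (5798 against 3307). Rrm2, the S-phase subunit of ribonucleotide reductase, which makes deoxynucleotides, was 4.29-fold higher (1752 against 408), also on an _x_at probe set. The other probe sets of Rrm2 gave 5.81-fold and 2.40-fold. Its partner subunit Rrm1 was 3.04-fold higher (1103 against 362), with 2.42-fold on a second probe set and 1.11-fold on a dim one (17.7 against 15.9). Dut and Dctpp1 remove unwanted nucleotides from the DNA precursor pool. Dut had 1103 against 323, 3.42-fold, but 1.72-fold on a dimmer probe set, and Dctpp1 had 609 against 226, 2.69-fold. Prps1 and Prps2 make PRPP, the sugar phosphate that both routes consume. Prps1 was 2.21-fold higher (650 against 294), while Prps2 was nearly level (960 against 925, 1.04-fold) on each of its 3 probe sets (0.05 to 0.19 in log2 ratio). A probe set that Prps1 shares with another gene was within 2-fold, at 1.86-fold (544 against 293). Cmpk1, a UMP and CMP kinase, was 1.30-fold higher (1281 against 987).

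Of the 5 salvage enzymes 3 were at least 2-fold higher. Uck2, a uridine and cytidine kinase, had a signal of 371 with P25 against 88.2 with medium, 4.20-fold. Of its 6 probe sets 4 were past 2-fold, while the dimmest, with a P25 signal below the floor, gave a log2 ratio of -0.33. Tk1, the cytosolic thymidine kinase of S phase, was 2.79-fold higher (203 against 72.9). The purine base enzymes were both higher, Aprt 2.56-fold (1093 against 427) and Hprt 1.88-fold (2090 against 1110), the latter within 2-fold. Dck, the deoxycytidine kinase, was level at 1.07-fold (1033 against 963), and its dimmest probe set had a log2 ratio of -0.64.

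The genes of nucleoside breakdown went apart. Ada, which deaminates adenosine inside cells, was 2.55-fold higher (169 against 66.2). Nt5e, which encodes CD73 and makes adenosine outside cells, had a signal of 12.6 with P25 against 29.8 with medium, 2.37-fold lower. Both signals were close to the floor, and the other measured probe set had a log2 ratio of -0.55 with its P25 signal below the floor, so the lower level rests on dim signals.

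Side by side, 17 of 22 de novo members (77.3%) and 3 of 5 salvage members were at least 2-fold higher. The median log2 ratios were 1.44 and 1.35. The difference between these medians was 0.09, and its sign was not stable. It was -0.05 with the median over all probe sets of each gene, -0.02 without _x_at and _s_at probe sets (an alternative chosen after the data were seen), and -0.05 when only the purine and pyrimidine steps stood for the de novo route. The ranges overlapped, from 0.28 to 3.06 de novo and from 0.10 to 2.07 in salvage.

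**Figure D3:**
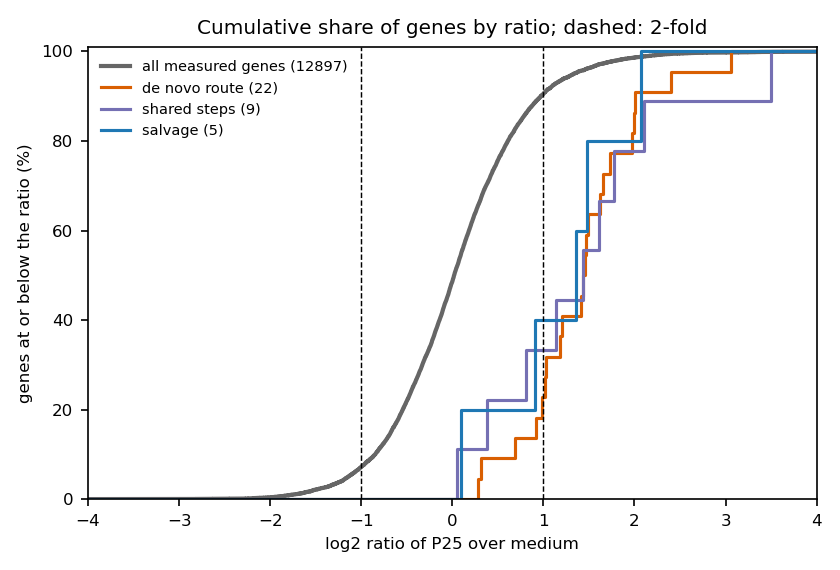
Cumulative share of genes (vertical axis, percent) at or below a log2 ratio of P25 over medium, for all 12897 measured genes and for the de novo, shared and salvage members; dashed lines mark 2-fold, and the axis ends at 4, beyond which some of all genes lie. The 3 member curves overlap and lie to the right of the curve of all genes, with medians of 1.44, 1.43 and 1.35 against 0.02.

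Ratios also differed between genes that encode the same or a similar activity. A set of 11 such pairs was drawn up after the values were seen. In 10 of them the log2 ratios of the brightest probe sets were more than 1 apart. Many of the second genes were no members, and Uck2 enters more than 1 pair. The other pathway genes had a median log2 ratio of 0.30 against 1.42 for the members, so gaps are in part built into the choice. No share was computed for other gene pairs, and the count is a description only. In all 11 pairs the first named gene was the higher. Cmpk1 and Cmpk2 were left out of the set and went the other way (0.38 and 1.56). Rrm2 was higher (2.10) while Rrm2b, the reductase subunit of resting and damaged cells, had a log2 ratio of -0.86 (211 against 384), though its 4 probe sets spanned -0.86 to 0.47. Ctps had 1.62 and Ctps2 -1.22 (277 against 642), the latter with 0.04 on another probe set. For thymidine kinases, Tk1 had 1.48, and Tk2, the mitochondrial enzyme, was 2.40-fold lower (177 against 425, 1 probe set). Adss had 0.69, whereas Adssl1, its paralogue known from muscle, was 3.34-fold lower (22.1 against 73.9). Uck2 had 2.07, against -0.08 for Uck1 and -0.68 for Uckl1. Mthfd2 had 1.98, against -0.30 for Mthfd2l, which was dim (19.3 against 23.8) and had 0.87 on another probe set. On the brightest probe sets, Nme1 and Nme2 (3.50 and 0.81) and Prps1 and Prps2 (1.14 and 0.05) also stood more than 1 apart. So did Shmt1 and Shmt2 (3.06 and 1.998), and both genes of each of these pairs lay above 0. The gap of Nme1 to Nme2 passed 1 only on the _x_at probe set, as the other one of Nme1 had 1.81. Prps2 had 0.19 on another probe set, and Prps1 had 0.89 on the probe set that it shares with another gene, so their gap passed 1 only on some probe sets. The probe sets of Shmt1 spanned 1.12 to 4.10 and those of Shmt2 0.79 to 1.998, so their ranges overlapped and their order is uncertain. Mthfd1 and Mthfd1l differed by 0.71.

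**Figure D4:**
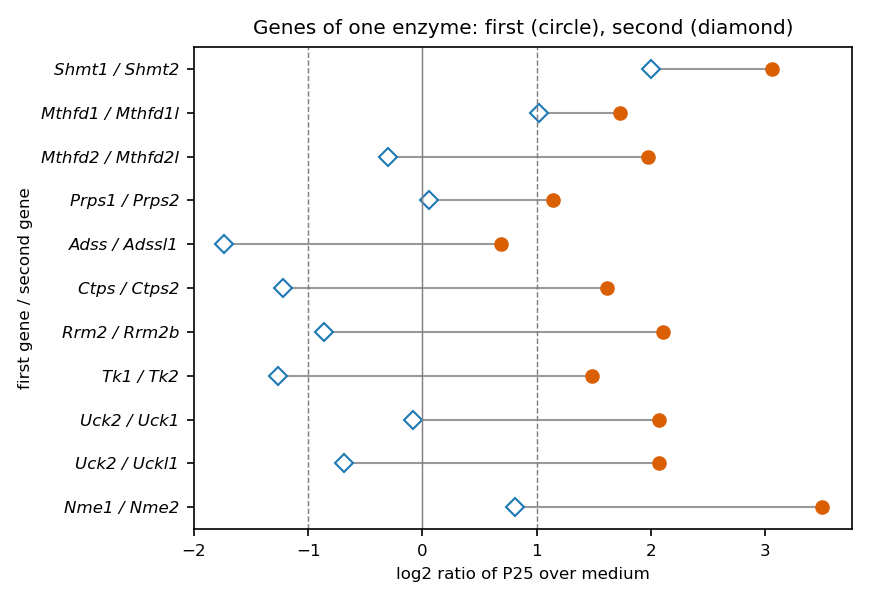
Log2 ratio of P25 over medium for 11 pairs of genes of the same or a similar enzyme, the first named as a circle and the second as a diamond, with dashed lines at 2-fold. Tk2, Ctps2 and Adssl1 lie below -1, while their partners lie at 1.48, 1.62 and 0.69.

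Other genes of these pathways, from a list of 75 that does not include the members, went both ways. Of 55 measured, 14 were higher by 2-fold or more and 4 lower, beside 9.43% and 7.22% of all measured genes. The lower count is thus near the share of all genes. The median log2 ratio of the 55 was 0.30. Those of the folate and methionine cycles included Slc19a1, the reduced folate carrier (2.48-fold, 475 against 192), Fpgs, which traps folate in cells (2.13-fold), Mtrr (2.63-fold), Ahcy (2.58-fold) and Mtap, which recovers methionine and adenine (2.91-fold). Gcsh, a subunit of glycine cleavage, was 3.64-fold higher (895 against 246). In the deoxynucleotide group Dctd, which turns dCMP into dUMP for Tyms, was 4.43-fold higher (82.0 against 18.5) and Nudt1, which clears oxidised purine nucleotides, 2.65-fold. Adk, the adenosine kinase, was 2.89-fold higher, with log2 ratios from 0.34 to 1.59 over 5 probe sets. The nucleoside transporters Slc29a1 and Slc29a2 were 2.72-fold and at least 3.69-fold higher, "at least" because the medium signal of Slc29a2 was below the floor (0.45 in log2 ratio on its other probe set). Upp1, which splits uridine, was at least 4.99-fold higher (51.4 against a signal below the floor). Cmpk2, a nucleotide kinase known as an interferon-stimulated gene, was 2.95-fold and Ampd2, an AMP deaminase, 2.53-fold higher. The 4 lower ones were Tk2, Ctps2 and Adssl1, given above, and Ampd3, at 2.56-fold lower (83.0 against 213).

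Among 8 regulators of the pathways 2 were at least 2-fold higher, beside 9.43% of all measured genes. E2f1, a transcription factor of S-phase entry, was highest (2.49 in log2 ratio, 175 against 31.1), though its probe sets spanned 0.09 to 2.49. Myc had 820 against 172 (4.78-fold), while Nfe2l2 was lowest at -0.47. Atf4 was level in mRNA (1540 against 1581). Of 14 measured cell division genes 12 passed 2-fold, all of them upward, beside the same 9.43%. The median was 2.81-fold, from 0.79 (Mki67) to 2.16 (Cdk1) in log2 ratio. The part of cell division in the members' ratios was not tested.

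**Figure D5:**
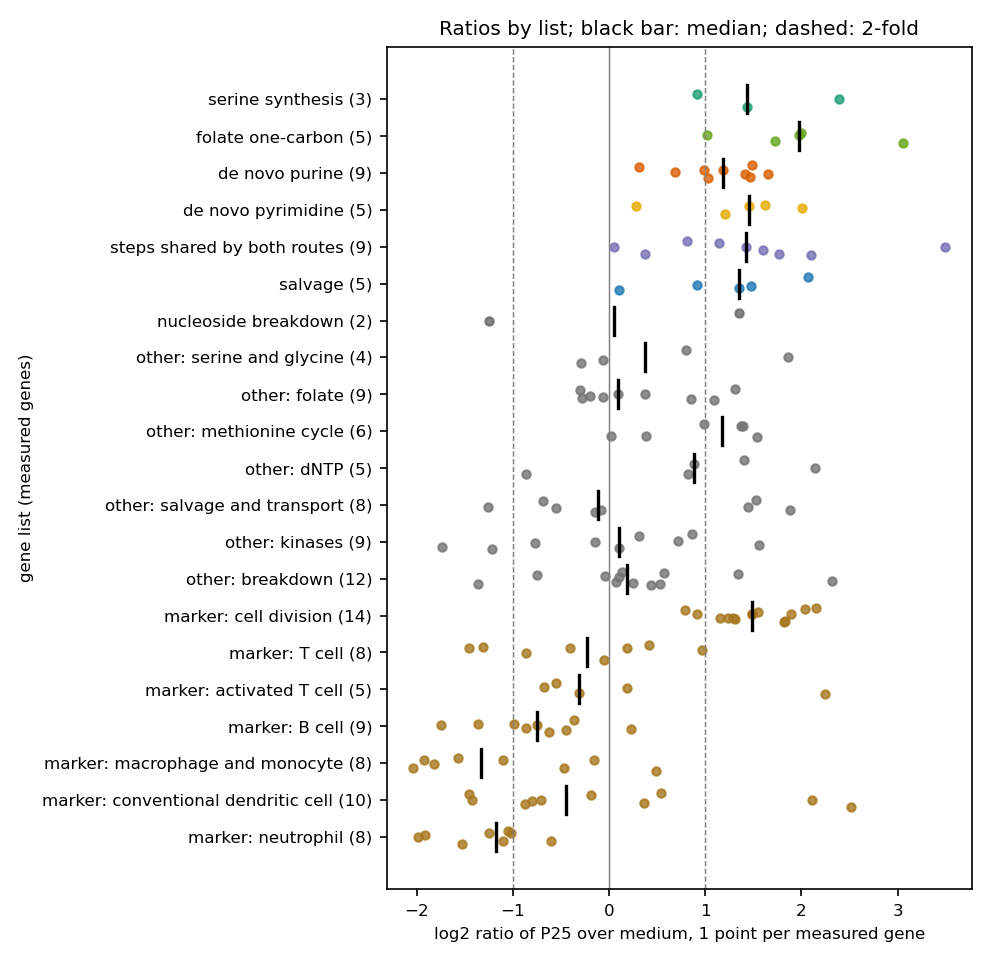
Log2 ratio of P25 over medium for each measured gene (points) with the list median (black bar), for the member routes, other pathway genes and marker lists; dashed lines mark 2-fold and vertical scatter within a list has no meaning. The medians of the 4 de novo lists, the shared steps and salvage lie between 1.18 and 1.98, beside 1.49 for cell division and -0.74 for B cell markers.

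Markers were checked for the cells that the samples could hold. For comparison, 9.43% of all measured genes were at least 2-fold higher and 7.22% at least 2-fold lower. All 9 B cell markers on the array were measured, and only Ms4a1 lay above 0 (5911 with P25 against 5041 with medium). The 2 that were at least 2-fold lower were Vpreb3 (155 against 518) and Blk (708 against 1822). The list's median log2 ratio was -0.74 and its summed signal 19315 against 27761. Macrophage and monocyte markers (median -1.33, 5 of 8 at least 2-fold lower, summed signal 429 against 1053) and neutrophil markers (median -1.17, 7 of 8 lower, 6901 against 12788) were lower with P25. Conventional dendritic cell markers had a median of -0.45 and went both ways. Zbtb46 (5.72-fold, 80.0 against 14.0) and Ly75 (4.32-fold, 232 against 53.6) were higher, and Sirpa (2.69-fold, 68.3 against 183) and Cadm1 (P25 signal below the floor, 28.2 with medium) were lower. Their summed signal (4799 against 3405) was mostly that of Irf8 (4275 against 2939), which B cells also express. Of 12 T cell markers on the array 4 (Cd3d, Cd3e, Cd4 and Cd6) were below the floor on both arrays, none was at least 2-fold higher, and the summed signal was 185 against 257. Cd3g, another subunit of the T cell receptor complex, was 1.95-fold higher (21.6 against 11.1), and Trat1 was above the floor with P25 alone (13.7). Zap70 was nearly level (35.1 against 36.4), while Il7r (31.0 against 85.2) and Cd28 (22.5 against 56.0) were at least 2-fold lower. The part of T cell RNA in the members' ratios was not tested. Among activated T cell markers Il2, Ifng and Cd40lg were below the floor on both arrays, and only Il2ra, which activated B cells and dendritic cells can also express, was at least 2-fold higher (122 against 25.6). No erythroid marker was above the floor. Of 5 plasmacytoid dendritic cell markers, Bst2 (4.26-fold) and Klk1 (2.45-fold) were at least 2-fold higher, and Siglech and Ccr9 at least 2-fold lower. Of 5 plasma cell markers Sdc1 alone was at least 2-fold lower (89.9 against 298), and none was at least 2-fold higher. The part of the shifts among myeloid, dendritic cell, B cell and plasma cell markers in the members' ratios was not tested.

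The scaling of the arrays bears on all counts. Of all genes past 2-fold, 56.6% were higher on the deposited scale, 71.0% with both arrays at one median over the measured probe sets and 74.9% with both at one level of 42 spike-in control probe sets, which had a median log2 ratio of -0.19. The overall median log2 ratio went from 0.02 to 0.15 and 0.19 under these scalings, and the number of members at least 2-fold higher from 27 to 30 and 31. The share of all measured genes at least 2-fold higher rose as well, from 9.43% to 12.4% and 13.5%.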

How the data were processed

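RNA of APCs from 2 groups (P25 and medium) was measured on 1 Affymetrix array each, from a mixture of 3 experiments. The deposited intensities are linear MAS5 signals from GCOS, as the submitters' processing notes name these tools without versions. The scaling target and detection calls were not used here. Mismatch signal is subtracted by MAS5, which makes ratios of dim probe sets unsteady.

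Of 45037 probe sets other than 64 controls, 34945 carried 1 gene symbol in the platform annotation (updated by Entrez number through RefSeq, GRCm38.p6) and were used; 932 with several and 9160 with none were not. A floor at the 40th percentile over both arrays (10.3) was applied, and lower signals were set to it. About 60.3% (P25) and 59.7% (medium) of probe sets were above it. Genes were counted at ratios of at least 2 or at most 0.5, and the number of arrays limits the precision. Python 3.11.15 with pandas 2.3.3 was used, and the scripts were tested on simulated arrays. Batch and group cannot be told apart with 1 array each.

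All members were named; of other pathway genes those past 2-fold, and of marker and regulator lists mainly the extremes, the others after their values were seen. Protein sequences were not used here. The members and lists were chosen with earlier results of these data known. Alternatives were the floor, a filter, a pseudocount of 16, 3 scalings, the probe set rule, the threshold and the route lists.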

Additional observations from a re-analysis of the deposited data

How the results depend on the processing

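Of the 27 members at least 2-fold higher, 25 were so under each alternative floor, filter, pseudocount, scaling and probe set rule that gave them a value (Phgdh had none without _x_at and _s_at probe sets). The exceptions were Gmps (log2 ratio 0.65 at its lowest) and Mthfd1l (0.94), both close to the threshold. The count of higher members lay between 25 (loess on mean signal, 9.23% of all measured genes) and 31 (spike-in scaling, 13.5%). It was 32 at a 1.5-fold threshold (20.9% of all measured genes) and 13 at a 3-fold threshold (3.09%). The count of lower members, 1 (Nt5e), went to 0 with a floor at the 60th percentile, with a pseudocount of 16, with the median over the probe sets of a gene and at a 3-fold threshold. At that floor Nt5e was not measured. The median log2 ratio of all members stayed between 1.30 and 1.61. The difference between de novo and salvage medians (0.09) changed sign with the median over probe sets (-0.0512), without _x_at and _s_at probe sets (-0.0229, added after the data were seen) and with purine and pyrimidine enzymes alone (-0.0456), and the cause was not tested. Of single members, Tyms (4.01-fold) went to a log2 ratio of 1.01 with the higher floor, which lies above its medium signal, and Nme1 from 3.50 to 1.81 without its _x_at probe set. Signals of Tyms and Nt5e lie near the background, which limits both ratios.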
